A study of Homo sapiens with 54 samples.

Results

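Metallothioneins are small cysteine-rich proteins that hold zinc and copper ions in the cell, and SLC30A1 (also called ZnT1) is the transporter that moves zinc from the cytosol out across the plasma membrane. The 8 genes described here were found by name among the 60676 genes of each table. They are the metallothioneins MT1E, MT1F, MT1G, MT1M, MT1X, MT2A and MT3 and the exporter SLC30A1. RNA-seq was available for 53 libraries of hMSN-like cells, which are cultures with features of striatal medium spiny neurons differentiated from the human embryonic stem cell line H9 (WA09). Every library came from this line, so the values describe cultures of 1 genotype, and each group held 3 libraries except 5 Day with 2.

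The groups fall into 4 experiments. For 1 mM and for 1 µM dopamine, cells were exposed acutely (a single incubation) or chronically (daily for 5 days), and RNA was taken 1 h or 24 h later. Each dose had its own single group of PBS controls, and the culture age of these controls is not stated. By the study's methods the chronically dosed cultures were older when sampled than the acutely dosed ones. In at least part of the comparisons with PBS, dopamine and culture age therefore cannot be told apart. In the time course, 1 mM dopamine was given on 2, 3, 4 or 5 successive days and compared with cells given only the ascorbic acid vehicle. In the agonist experiment, SKF82958 (D1-like receptors) or quinpirole (D2-like receptors), both at 50 µM by their labels, was compared with water. By the study's methods dopamine was dissolved in ascorbic acid, so in both PBS-controlled experiments dopamine and ascorbic acid cannot be told apart. The tables do not say whether the libraries of a group came from separate differentiations, so the spread between them may be partly technical.

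In textbook biology, free zinc in the cytosol is sensed by MTF1, a zinc finger transcription factor that binds metal response elements in the promoters of metallothionein genes and of SLC30A1. MT2A and the MT1 genes are inducible forms found in many tissues and also respond to glucocorticoids and oxidative stress. MT3 is the form found mostly in the brain and is known for responding weakly to metals. In many cell types, metallothionein and SLC30A1 mRNA are known to rise together when zinc is added.

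The promoters of MT2A, MT1X and SLC30A1 are shown because, of the 8 genes, these 3 were found in the RefSeq promoter table, and each was called in the 1 mM experiment. The bases are from RefSeq (GRCh38.p14), the 250 before each annotated start, 5′ to 3′ on the strand of the gene, and capitals mark matches to the metal response element core (TGCACNC or TGCGCNC, on either strand). MT2A is on the plus strand at chr16:56608334-56608583, MT1X on the plus strand at chr16:56682220-56682469 and SLC30A1 on the minus strand at chr1:211579162-211579411.
MT2A: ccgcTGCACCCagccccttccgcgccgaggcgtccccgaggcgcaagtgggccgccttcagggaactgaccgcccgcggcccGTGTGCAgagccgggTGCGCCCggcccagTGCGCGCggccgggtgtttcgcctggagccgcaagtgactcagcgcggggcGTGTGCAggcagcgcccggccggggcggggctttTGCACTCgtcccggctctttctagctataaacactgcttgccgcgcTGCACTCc
MT1X: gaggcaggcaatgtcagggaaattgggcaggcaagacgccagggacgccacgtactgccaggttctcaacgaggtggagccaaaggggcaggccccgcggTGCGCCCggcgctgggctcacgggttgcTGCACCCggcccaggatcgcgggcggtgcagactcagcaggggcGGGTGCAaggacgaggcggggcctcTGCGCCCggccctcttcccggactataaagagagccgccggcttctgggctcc
SLC30A1: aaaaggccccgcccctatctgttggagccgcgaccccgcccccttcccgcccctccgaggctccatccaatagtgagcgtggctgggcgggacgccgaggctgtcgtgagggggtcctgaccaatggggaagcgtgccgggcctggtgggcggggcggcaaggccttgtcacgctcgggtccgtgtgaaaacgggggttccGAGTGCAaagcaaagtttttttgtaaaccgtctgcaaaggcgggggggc

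In the window from 250 bases before to 50 after the start, MT2A held 8 matches to this core, MT1X 4 and SLC30A1 2. Of 35116 RefSeq promoters of the same length, 29.6% held at least 1 match, 2.3% held at least 3 and 0.162% at least 5. The printed bases include 7 of the 8 matches of MT2A, all 4 of MT1X and 1 of SLC30A1. The window of MTF1 held 0. Each of the 3 printed genes also had 1 match to TGAC, any 3 bases and GC (antioxidant response element, at least 1 in 13.3% of promoters). Each had 3 matches to ACGTG or GCGTG (hypoxia response element core), of which 48.4% of promoters held at least 1 and 10.1% at least 3. Both motifs were counted on both strands. In MT2A, 2 of the hypoxia matches share letters with metal matches, and in SLC30A1 1 hypoxia match shares letters with the antioxidant match. None held AGAACA, 3 bases and TGTTCT (an exact spelling of the glucocorticoid response element), which was found in 0.00285% of promoters. With so rare a spelling its absence is uninformative, and looser forms of the element were not searched. Promoters were looked up for all 8 genes. A match describes letters and was not tested for binding.

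**Figure D1:**
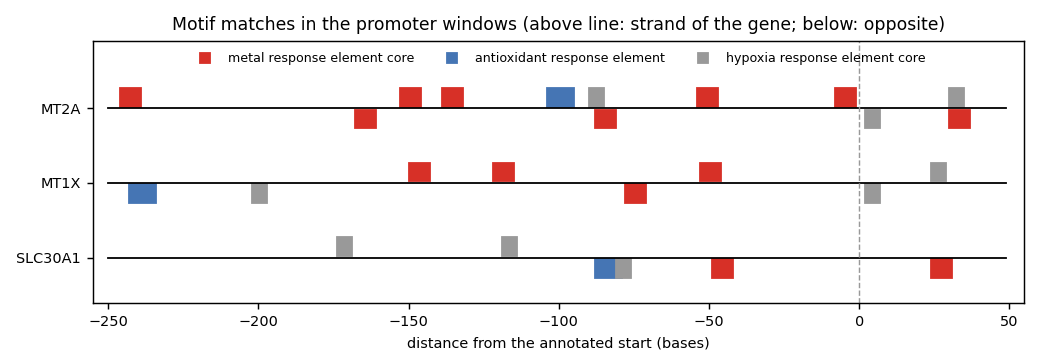
Motif matches in the promoter windows of MT2A, MT1X and SLC30A1, with the distance from the annotated start in bases on the x axis. Boxes above a line are on the strand of the gene and boxes below on the opposite strand, and MT2A shows the most metal response element cores (8, against 4 and 2).

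In the tables (GRCh38), the metallothioneins lie side by side on chromosome 16, each counted over the exons of its gene. MT3 spans 56589074 to 56591088, MT2A 56608584 to 56609497, MT1E 56625475 to 56627112, MT1M 56632659 to 56633981, MT1F 56657731 to 56660698, MT1G 56666731 to 56668065 (minus strand) and MT1X 56682470 to 56684196. SLC30A1 is on chromosome 1 from 211571568 to 211579161, minus strand. Metallothionein genes are close copies of each other, so unique mapping was checked. All exon reads were unique for 7 of the 8 genes, and for MT1X 640 of 755 (84.77%). The span of MT1X is shared by AC026461.1, a lncRNA on the same strand that is listed at 0 exon reads, and no other member overlaps another gene. Levels are given as TPM, exon reads per exon base with the libraries brought to a common total by the authors' software. Genes can be compared with each other only as far as the exon lengths hold. The exon length of MT2A, 914 bases, covers its whole span, although 1652 of its 2138 exon reads crossed a junction. Its TPM may therefore be too low beside that of other genes.

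Exon reads per library ranged from 5755919 to 27702963, apart from the library labelled quinpirole replicate 1 with 137051 exon reads and 96.67% of its gene reads in introns. In that library every member was listed at 0. A second library stood apart, 1 mM Acute 24 h replicate 1, and because all groups of an experiment share a fit it widened the errors of the whole 1 mM experiment. Its depth (14688981 exon reads) and intron share (12.49%) were within the range of that experiment. It stood apart in gene values, among them the member SLC30A1 at 145 TPM. Without it, 3624 of 18178 genes were called higher at 1 mM Acute 1 h, against 1431 of 17804 with it. Values of the members in the 1 mM experiment are therefore given with it and, where the call differs, without it, and counts over gene lists are given without it after those with all libraries. In the other 52 libraries the neuron marker MAP2 held 273 to 699 TPM. Of the striatal markers, BCL11B held 25.8 to 98.6 TPM and PPP1R1B 2.66 to 44.7 TPM. Several others were low, with FOXP1 at 2.19 to 7 TPM, DRD1 at 0 to 6.08 TPM and PDYN at 0 to 1.73 TPM. Markers of other cells were also present, with GJA1 of astrocytes at 59 to 357 TPM and TTR of choroid plexus epithelium at 201 to 4442 TPM. Progenitor markers were high, with VIM at 532 to 2536 TPM and SOX2 at 227 to 1175 TPM. COL1A1 of mesenchymal cells held 2.34 to 173 TPM. In such mixed cultures fewer cells of a type and less RNA per cell cannot be told apart.

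The exporter SLC30A1 had the highest TPM of the 8 genes, and 1 h after 1 mM dopamine it stood about 3 to 4 times above PBS. The 3 PBS libraries held 24.5, 28.7 and 24.8 TPM. At Acute 1 h the values were 82.3, 77 and 78.3 TPM, and at Chronic 1 h 108, 109.8 and 101.9 TPM. Every treated library at 1 h lay above every PBS library, and every Chronic 1 h library above every Acute 1 h library. Means were 26 ± 2.31 for PBS, 79.2 ± 2.79 for Acute 1 h and 106 ± 4.08 for Chronic 1 h (TPM, SD, n = 3). The log2(fold change) was 1.67 (SE 0.42, adjusted p = 0.0179) at Acute 1 h and 1.99 (SE 0.43, adjusted p = 0.03) at Chronic 1 h. Without 1 mM Acute 24 h replicate 1, these became 1.66 (SE 0.09, adjusted p = 9.45e-09) and 1.99 (SE 0.09, adjusted p = 1.87e-09). With it kept, leaving out a library of the compared groups moved the adjusted p to between 0.0469 and 0.0696 at Acute 1 h and between 0.0817 and 0.142 at Chronic 1 h, with the log2(fold change) never under 1.61 or 1.94.

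At 24 h, SLC30A1 was below every Acute 1 h and Chronic 1 h library in 5 of the 6 libraries, and 5 of the 6 lay above every PBS library. Acute 24 h gave 145 TPM in replicate 1 but 31.1 and 26.8 TPM in the other libraries, and Chronic 24 h gave 31.1, 39.7 and 38.9 TPM. The group mean at Acute 24 h thus rests on a single library, which overlaps no other of its group. Against PBS, Acute 24 h had a log2-scale change of 1.18 (SE 0.42, adjusted p = 0.0675), and of 0.10 (SE 0.11, adjusted p = 0.509) without replicate 1. Leaving out Acute 24 h replicate 2 or 3 instead gave 1.48 (adjusted p = 0.0271) or 1.54 (adjusted p = 0.013). Chronic 24 h had 0.46 (SE 0.42, adjusted p = 0.794), and without Acute 24 h replicate 1 0.46 (SE 0.10, adjusted p = 0.00816). All 3 Chronic 24 h libraries lay above all PBS libraries. From 1 h to 24 h after the last dose, the chronic log2(fold change) was -1.53 (SE 0.42, adjusted p = 0.214), and without that library -1.53 (SE 0.09, adjusted p = 5.11e-08). The acute change over the same interval was -0.49 (SE 0.41, adjusted p = 0.427) and -1.55 (SE 0.11, adjusted p = 1.67e-07) without it.

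**Figure D2:**
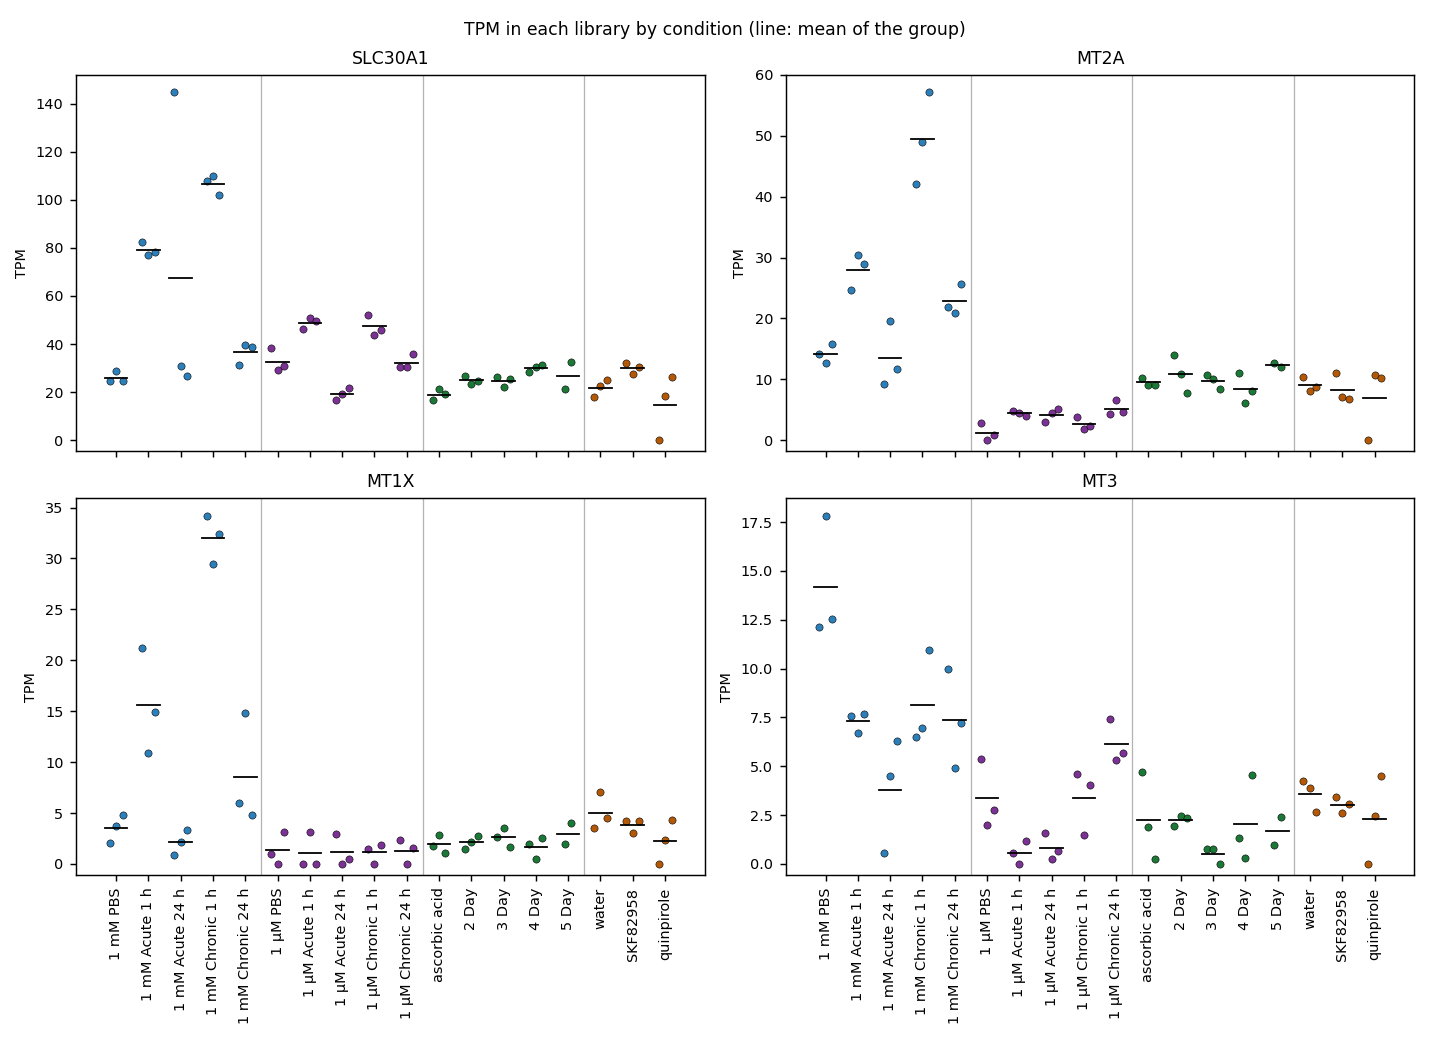
TPM of SLC30A1, MT2A, MT1X and MT3 in each library (points) and the mean of each group (line) over the 18 conditions, with experiments separated by grey lines. SLC30A1, MT2A and MT1X are highest at 1 mM Chronic 1 h apart from a single SLC30A1 value of 145 TPM at 1 mM Acute 24 h, and MT3 is highest in the 1 mM PBS libraries.

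MT2A, an inducible metallothionein, was also called higher at 1 h. It held 14.1, 12.8 and 15.8 TPM in the 1 mM PBS libraries (48 to 58 exon reads). Acute 1 h held 24.7, 30.4 and 29 TPM and Chronic 1 h 42.1, 49 and 57.2 TPM (152 to 212 exon reads). No library of PBS, Acute 1 h or Chronic 1 h overlapped another of these groups. Against PBS the log2(fold change) was 1.04 (SE 0.26, adjusted p = 0.0175) at Acute 1 h and 1.75 (SE 0.26, adjusted p = 0.00431) at Chronic 1 h. The first is near its limit, since leaving out PBS replicate 1 or 2 or Acute 1 h replicate 2 or 3 gave adjusted p-values of 0.0611 to 0.0812 with a log2(fold change) of 0.94 or more. Without 1 mM Acute 24 h replicate 1 the adjusted p at Acute 1 h was 0.00107.

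MT1X, another inducible form, also rose at 1 h. Its values were 2.03, 3.75 and 4.81 TPM in PBS, 21.2, 10.9 and 14.9 TPM at Acute 1 h and 34.2, 29.5 and 32.4 TPM at Chronic 1 h. These are 6 to 15, 28 to 65 and 90 to 105 exon reads per library, and the 3 groups did not overlap. The log2(fold change) was 2.20 (SE 0.48, adjusted p = 0.00877) at Acute 1 h and 3.12 (SE 0.47, adjusted p = 0.0051) at Chronic 1 h, and both calls held when any library of the compared groups was left out (adjusted p at most 0.0444). Unique gene reads of MT1X, which leave out reads that map elsewhere, were 5, 10 and 10 in PBS, 51, 20 and 36 at Acute 1 h and 81, 77 and 86 at Chronic 1 h, with the same separation.

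At 24 h, MT1X in the 1 mM experiment was 0.863, 2.18 and 3.32 TPM (Acute) and 5.97, 14.8 and 4.8 TPM (Chronic). MT2A was 9.17, 19.6 and 11.7 TPM and then 21.9, 20.9 and 25.6 TPM. Neither gene passed the threshold against PBS at 24 h (adjusted p from 0.365 to 0.717), although all Chronic 24 h libraries of MT2A lay above all PBS libraries. Acute 24 h was lower than Acute 1 h by a log2-scale change of -2.94 (SE 0.50, adjusted p = 0.0109) for MT1X and -1.19 (SE 0.26, adjusted p = 0.0312) for MT2A. Both calls depend on single libraries. Without Acute 1 h replicate 1 the adjusted p was 0.0559 for MT1X and 0.0818 for MT2A, and for MT2A it was 0.122 or 0.115 without Acute 1 h replicate 2 or 3. Chronic 24 h exceeded Acute 24 h for MT1X, with a log2-scale change of 1.97 (SE 0.52, adjusted p = 0.036), and the groups did not overlap. Without Chronic 24 h replicate 2 this was 1.31 (adjusted p = 0.178) and without replicate 1 it was 2.17 (adjusted p = 0.0635). For MT2A the same comparison gave 0.80 (SE 0.26, adjusted p = 0.0745), and 1.23 (SE 0.23, adjusted p = 0.00878) without Acute 24 h replicate 2.

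The other MT1 genes were near the limit of detection, where 3 exon reads are the floor used here. MT1E had 0, 1 and 3 exon reads in the 1 mM PBS libraries, 6, 5 and 6 at Acute 1 h and 14, 14 and 17 at Chronic 1 h. The PBS libraries are at or under the floor and the others above it. Summed reads were 45 at Chronic 1 h against 4 in PBS, a ratio per exon read of 11.3 with an exact 95% counting interval of 4.12 to 43.3. In the fit MT1E was called at Chronic 1 h (log2(fold change) 3.33, SE 0.70, adjusted p = 0.0263) and not at Acute 1 h (2.20, SE 0.78, adjusted p = 0.0709, and 0.0497 without PBS replicate 3 or 0.0267 without 1 mM Acute 24 h replicate 1). The Chronic 1 h call was lost, with adjusted p-values of 0.081 to 0.15, without PBS replicate 1 or 2 or any Chronic 1 h library. MT1E passed the filter on low counts through its reads at Chronic 1 h alone.

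MT1F had 7, 10 and 2 exon reads in PBS, 19, 11 and 14 at Acute 1 h and 17, 17 and 25 at Chronic 1 h. Both treated groups lay above PBS in every library. Its log2(fold change) was 1.39 (SE 0.59, adjusted p = 0.127) and 1.57 (SE 0.58, adjusted p = 0.185), and without 1 mM Acute 24 h replicate 1 the adjusted p was 0.0218 and 0.0189. MT1G had 2, 1 and 0 reads in PBS, 0, 4 and 0 at Acute 1 h and 3, 8 and 6 at Chronic 1 h, and did not pass the filter on low counts. MT1M had 4 exon reads in all 53 libraries together and could not be followed at this depth.

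**Figure D3:**
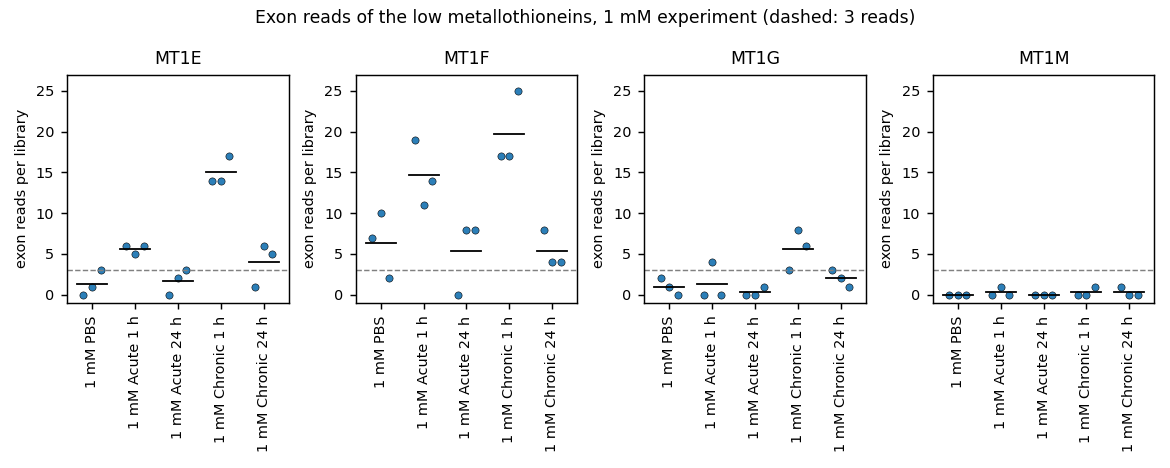
Exon reads per library of MT1E, MT1F, MT1G and MT1M in the 5 groups of the 1 mM experiment (points, with the group mean as a line), with the floor of 3 reads dashed. MT1E reaches 14 to 17 reads at Chronic 1 h against 0 to 3 in PBS, and MT1M stays at or near 0 in every group.

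MT3, the brain form, lay below PBS in every dopamine library of the 1 mM experiment. It held 12.1, 17.8 and 12.6 TPM in PBS, 7.57, 6.7 and 7.7 TPM at Acute 1 h and 0.572, 4.51 and 6.27 TPM at Acute 24 h. Chronic 1 h held 6.48, 6.95 and 10.9 TPM and Chronic 24 h 10, 4.9 and 7.22 TPM. None of the 12 treated libraries overlapped the 3 PBS libraries. The 4 treated groups share these 3 controls, and the share of all genes without such overlap is not given, so this describes the values only. Only Acute 24 h passed the threshold, with a log2-scale change of -1.90 (SE 0.48, adjusted p = 0.0235), and the adjusted p was 0.0559 without PBS replicate 1 and 0.095 without PBS replicate 2. The other log2(fold change) values were -0.89 (SE 0.47, adjusted p = 0.217) at Acute 1 h, -0.84 (SE 0.46, adjusted p = 0.399) at Chronic 1 h and -0.97 (SE 0.46, adjusted p = 0.483) at Chronic 24 h. All 4 passed without 1 mM Acute 24 h replicate 1, with adjusted p-values of 0.016 and 0.0384 at 1 h (Acute, then Chronic) and 0.00566 and 0.0378 at 24 h.

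The summed level of 10 listed hypoxia-inducible targets was 809 to 1434 TPM in the PBS libraries, 300.3 to 503 TPM at Acute 1 h, 245 to 322 TPM at Acute 24 h, 582 to 690.1 TPM at Chronic 1 h and 328 to 520.0 TPM at Chronic 24 h, and 9, 10, 1 and 6 of the 10 were called lower. Of all 17804 genes tested, 1414, 1263, 145 and 97 were called lower in the same comparisons. With 1 mM Acute 24 h replicate 1 left out the counts of targets were 9, 10, 6 and 9. Of 10 listed astrocyte markers, 3 fell at Acute 24 h (SLC1A2, ALDOC and AQP4) and none rose, while their summed level was 467 to 502 TPM in PBS and 479 to 592 TPM at Acute 24 h. The part of either list in the MT3 values was not tested.

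The calls among the members are given beside the share of all genes called. At Acute 1 h, 3 of the 6 members tested were called higher (adjusted p under 0.05) and 0 lower, against 8.04% of 17804 genes called higher. By the study's DEG rule, which adds a minimum change of 1 on the log2 scale and a group mean reaching 1 TPM, the same 3 passed, against 1.91%. At Chronic 1 h, 4 of 6 were called higher, against 1.27% of genes, and 4 passed the DEG rule, against 0.668%. Without 1 mM Acute 24 h replicate 1, 5 of 6 were higher and 1 lower in both comparisons, against 19.9% higher and 19.9% lower at Acute 1 h and 9.25% and 9.1% at Chronic 1 h. MT1G and MT1M did not pass the filter in any experiment. MT1E had at most 6 exon reads in any library outside Chronic 1 h, where it had 14 to 17. It thus reached the filter's minimum count of 10 through Chronic 1 h alone. MT1F reached this count in every library only at Acute 1 h and Chronic 1 h. The 6 tested and the calls of these genes therefore rest in part on the same values, and the counts are descriptions.

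At Acute 24 h, 1 of 6 was called lower, against 7.09% of genes, and against 11.1% without replicate 1. At Chronic 24 h, edgeR called 0 of 6 in either direction, against 0.663%, with MT2A and MT1X at an unadjusted p under 0.05 and 0 called by DESeq2 of the 5 it tested. With Acute 24 h replicate 1 left out, 1 was higher (3.06% of genes) and 1 lower (5.42%). Between Acute 24 h and Acute 1 h, 2 of 6 fell, against 1.38% of genes, and 3 fell without Acute 24 h replicate 1, against 4.08%. Without Acute 24 h replicate 2, MT1F was also called lower (-2.25, adjusted p = 0.0475).

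**Figure D4:**
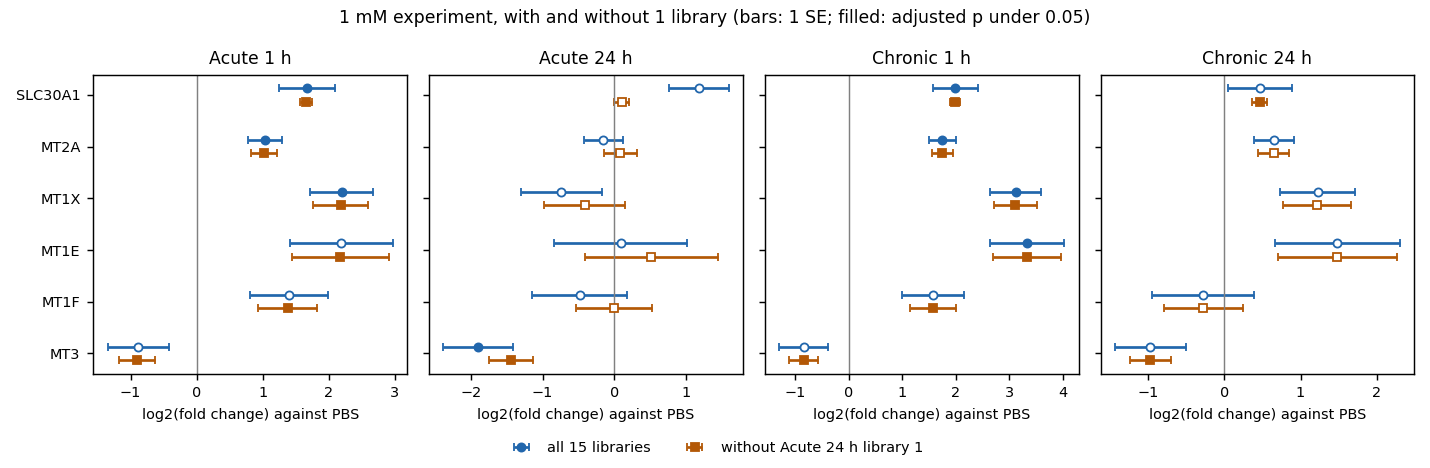
Log2(fold change) against PBS (x axis, bars are 1 SE) of the 6 members tested at 1 mM, with all 15 libraries (circles) and without Acute 24 h replicate 1 (squares), filled where the adjusted p is under 0.05. The values at 1 h hardly move while their errors shrink, and SLC30A1 at Acute 24 h moves from 1.18 to 0.10.

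Chronic and acute dosing were compared directly at the same hour after the last dose. By the study's methods the chronically dosed cultures were older when sampled than the acutely dosed ones, at both concentrations, so dosing and culture age cannot be told apart. At 1 h, edgeR called 0 of 6 members in either direction, against 11.3% of genes, with MT2A and MT1X at an unadjusted p under 0.05 and 1 member called by DESeq2. The log2(fold change) of Chronic 1 h over Acute 1 h was 0.71 (SE 0.25, adjusted p = 0.081) for MT2A, 0.92 (SE 0.41, adjusted p = 0.169) for MT1X and 0.32 (SE 0.41, adjusted p = 0.667) for SLC30A1. Without 1 mM Acute 24 h replicate 1, all 3 were called higher, with 0.73 (adjusted p = 0.00621), 0.93 (adjusted p = 0.0395) and 0.34 (adjusted p = 0.00822), against 17.4% of genes called higher. The libraries of these genes did not overlap between Chronic 1 h and Acute 1 h. The share of all genes without such overlap is not given, here or for the other groups, so this describes the values only.

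At 24 h, 1 of 6 members (MT1X) was called higher after chronic than after acute dosing, against 3.85% of genes. Without Acute 24 h replicate 1, MT1X and SLC30A1 were called, against 7.73%, and SLC30A1 changed sign from -0.71 (SE 0.41, adjusted p = 0.276) to 0.36 (SE 0.11, adjusted p = 0.0294). Between Chronic 24 h and Chronic 1 h, edgeR called 0 of 6, against 0.359%, with 5 at an unadjusted p under 0.05 and 3 called by DESeq2 of the 5 it tested. MT1X was called (-2.56, adjusted p = 0.0443) without Chronic 24 h replicate 2. With 1 mM Acute 24 h replicate 1 left out, 4 (SLC30A1, MT2A, MT1X and MT1F) were called lower at 24 h, against 3.34%.

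In the 1 µM experiment the metallothioneins were scarce in every group, PBS included. MT2A held 2.85, 0 and 0.881 TPM in PBS (0 to 7 exon reads) and at most 6.66 TPM in any library of the experiment. MT1X had at most 6 exon reads, and MT1E, MT1F, MT1G and MT1M were at or under 3 reads in all 15 libraries. Only MT2A, MT3 and SLC30A1 passed the filter. MT2A was above every PBS library in all 9 libraries of Acute 1 h, Acute 24 h and Chronic 24 h, with log2(fold change) values of 1.94 (SE 0.79, adjusted p = 0.18), 1.77 (SE 0.78, adjusted p = 0.264) and 2.11 (SE 0.77, adjusted p = 0.867). These libraries held 6 to 13 exon reads of MT2A in the acute groups and 10 to 44 at Chronic 24 h, and none of these comparisons was called.

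SLC30A1 was measurable at 1 µM, and it rose at Acute 1 h and fell below PBS at Acute 24 h. PBS held 38.2, 29.1 and 30.8 TPM, Acute 1 h 46.1, 50.9 and 49.8 TPM and Acute 24 h 16.9, 19 and 21.5 TPM. Chronic 1 h held 52.3, 43.7 and 46 TPM and Chronic 24 h 30.3, 30.4 and 35.8 TPM. Acute 1 h, Chronic 1 h and Acute 24 h did not overlap PBS, and Chronic 24 h did. The log2(fold change) was 0.62 (SE 0.16, adjusted p = 0.0381) at Acute 1 h and -0.83 (SE 0.16, adjusted p = 0.0143) at Acute 24 h. It was 0.58 (SE 0.16, adjusted p = 0.0818) at Chronic 1 h and -0.06 (SE 0.16, adjusted p = 0.928) at Chronic 24 h. The Acute 1 h call was lost without PBS replicate 1 or 3 or Acute 1 h replicate 2 (adjusted p from 0.0934 to 0.144), and the Acute 24 h call without PBS replicate 2 or any Acute 24 h library (0.0509 to 0.0732).

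From 1 h to 24 h after a single 1 µM dose SLC30A1 fell by a log2-scale change of -1.44 (SE 0.17, adjusted p = 0.000459), and this call held without any library of the compared groups (adjusted p at most 0.00625). Chronic 24 h was above Acute 24 h by 0.77 (SE 0.16, adjusted p = 0.0171), which was lost with adjusted p-values of 0.0521 to 0.0718 without any Acute 24 h library or without Chronic 24 h replicate 2 or 3. Chronic 24 h against Chronic 1 h gave -0.64 (SE 0.16, adjusted p = 0.0584).

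Of the 3 members tested at 1 µM, 1 was called higher at Acute 1 h (3.25% of genes higher), 1 lower at Acute 24 h (1.91% lower), 1 lower from Acute 1 h to Acute 24 h (0.447%) and 1 higher at Chronic 24 h than at Acute 24 h (2.37%). In each case this was SLC30A1. edgeR called 0 of 3 at Chronic 1 h (2.58% of genes in either direction), where SLC30A1 had an unadjusted p under 0.05 and was called by DESeq2. It called 0 of 3 at Chronic 24 h, where 0% of 16541 genes were called and 608 had an unadjusted p under 0.05, among them MT2A, and DESeq2 called 0. It called 0 of 3 between Chronic 1 h and Acute 1 h (1.2% of genes, MT3 at an unadjusted p under 0.05, 0 by DESeq2). It also called 0 of 3 between Chronic 24 h and Chronic 1 h (1.95%, SLC30A1 at an unadjusted p under 0.05 and called by DESeq2, which tested only this member).

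MT3 at 1 µM held 5.4, 1.99 and 2.75 TPM in PBS and 0.543, 0 and 1.16 TPM at Acute 1 h. Acute 24 h held 1.56, 0.272 and 0.658 TPM, Chronic 1 h 4.59, 1.49 and 4.03 TPM and Chronic 24 h 7.44, 5.31 and 5.7 TPM. The acute libraries lay below all PBS libraries, with 0 to 4 exon reads each, and both chronic groups overlapped PBS. The log2(fold change) was -2.51 (SE 0.88, adjusted p = 0.115) at Acute 1 h and -2.01 (SE 0.82, adjusted p = 0.224) at Acute 24 h. It was 0.05 (SE 0.72, adjusted p = 0.991) at Chronic 1 h and 0.86 (SE 0.71, adjusted p = 0.867) at Chronic 24 h. Chronic 24 h against Acute 24 h gave 2.87 (SE 0.81, adjusted p = 0.0591).

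The difference between doses was tested with an interaction term in a fit of both experiments. For SLC30A1 the log2 difference (1 mM effect minus 1 µM effect) was 1.08 (SE 0.45, adjusted p = 0.238) at Acute 1 h, 1.98 (SE 0.45, adjusted p = 0.0357) at Acute 24 h, 1.39 (SE 0.45, adjusted p = 0.322) at Chronic 1 h and 0.52 (SE 0.45, adjusted p = 0.871) at Chronic 24 h. Without 1 mM Acute 24 h replicate 1 these were 1.08 (SE 0.18, adjusted p = 0.00087), 0.94 (SE 0.20, adjusted p = 0.0182), 1.40 (SE 0.18, adjusted p = 0.000146) and 0.53 (SE 0.18, adjusted p = 0.306). The Acute 24 h difference thus moved from 1.98 to 0.94. With all libraries kept, its adjusted p was 0.0654 to 0.11 without any of the 1 mM PBS or 1 µM Acute 24 h libraries or without 1 µM PBS replicate 1 or 2. For MT2A the Acute 24 h difference was -1.91 (SE 0.65, adjusted p = 0.178), and -3.31 (adjusted p = 0.0475) without 1 µM PBS replicate 1.

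Of the 6 members in the dose fits, edgeR called 0 at Acute 1 h (2.01% of genes in either direction), 1 higher at Acute 24 h (0.484%), 0 at Chronic 1 h (0.087%) and 0 at Chronic 24 h (0.0109%). An unadjusted p was under 0.05 for SLC30A1 at Acute 1 h, for SLC30A1 and MT1X at Chronic 1 h and for MT3 and MT2A at Chronic 24 h, and DESeq2 called 0 in each of those comparisons (of 6, 6 and 4 members it tested). With 1 mM Acute 24 h replicate 1 left out, SLC30A1 was the 1 member called at Acute 1 h (2.62% of genes higher), Acute 24 h (0.391%) and Chronic 1 h (0.333%). The doses were run with separate PBS controls, and MT2A at 12.8 to 15.8 TPM in the 1 mM controls was above its 0 to 2.85 TPM in the 1 µM controls, so dose and experiment cannot be told apart.

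In the time course SLC30A1 was the member that rose. The ascorbic acid controls held 16.6, 21.3 and 19.1 TPM. After dosing, 2 Day held 26.5, 23.4 and 24.8 TPM, 3 Day 26.3, 22.1 and 25.4 TPM, 4 Day 28.5, 30.3 and 31.3 TPM and 5 Day 21.3 and 32.5 TPM. All libraries of 2, 3 and 4 Day lay above the controls, and 5 Day overlapped them. The log2(fold change) was 0.52 (SE 0.10, adjusted p = 0.00805) at 2 Day, 0.47 (SE 0.10, adjusted p = 0.00818) at 3 Day, 0.69 (SE 0.10, adjusted p = 0.000851) at 4 Day and 0.61 (SE 0.11, adjusted p = 0.00935) at 5 Day. Without ascorbic acid replicate 1 the 3 Day value was 0.37 (adjusted p = 0.053), and the other 3 calls held without any library of the compared groups. The 4 comparisons share their controls.

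Of the 3 members tested in the time course, 1 was called higher at each time, against 1.89% of genes at 2 Day, 4.77% at 3 Day, 2.58% at 4 Day and 1.23% at 5 Day. Between 5 Day and 2 Day edgeR called 0 of 3 members and 0.0239% of genes, with 0 members at an unadjusted p under 0.05 and 0 called by DESeq2, and SLC30A1 differed by 0.10 (SE 0.11, adjusted p = 0.806). MT2A lay between 6.08 and 14 TPM in all 14 libraries, with log2(fold change) values from -0.16 to 0.51 and adjusted p-values from 0.437 to 0.816, and both 5 Day libraries lay above the controls. MT3 was at 0 to 4.68 TPM and not called. MT1X had 1 to 10 exon reads per library and did not pass the filter.

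By its labels and methods 5 Day received the dopamine dose and number of days of 1 mM Chronic 1 h, with ascorbic acid instead of PBS as the control. Side by side, SLC30A1 had a log2-scale change of 0.61 (SE 0.11) at 5 Day and 1.99 (SE 0.43) at Chronic 1 h, and MT2A 0.51 (SE 0.30) and 1.75 (SE 0.26). The difference between these values was not tested, since the experiments had different controls.

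The agonists gave no called member. SLC30A1 held 17.8, 22.6 and 25 TPM in water, 32, 27.4 and 30.3 TPM with SKF82958 and 18.4 and 26.1 TPM in the quinpirole libraries that could be measured. The SKF82958 libraries lay above all others, with a log2(fold change) over water of 0.38 (SE 0.21, adjusted p = 1), and of 0.38 (SE 0.11, adjusted p = 0.184) without quinpirole replicate 1. For quinpirole it was 0.00 (SE 0.24, adjusted p = 1), and 0.07 (SE 0.12, adjusted p = 0.935) without that replicate. SKF82958 over quinpirole, the comparison of the D1-like with the D2-like agonist at the same labelled concentration, gave 0.38 (SE 0.24, adjusted p = 1), and 0.31 (SE 0.12, adjusted p = 0.998) without that replicate. MT2A held 6.73 to 11.1 TPM with SKF82958, 10.3 and 10.6 TPM with quinpirole and 8.14 to 10.3 TPM in water.

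edgeR called 0 of 3 members in each agonist comparison, none had an unadjusted p under 0.05, and DESeq2 called 0 of the 3, 1 and 2 it tested (SKF82958 against water, quinpirole against water and SKF82958 against quinpirole). The background was 0.0124% of 16132 genes for SKF82958 against water, 0% for quinpirole against water and 0% for SKF82958 against quinpirole, where 185, 350 and 242 genes had an unadjusted p under 0.05 and DESeq2 called 6, 110 and 53.

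**Figure D5:**
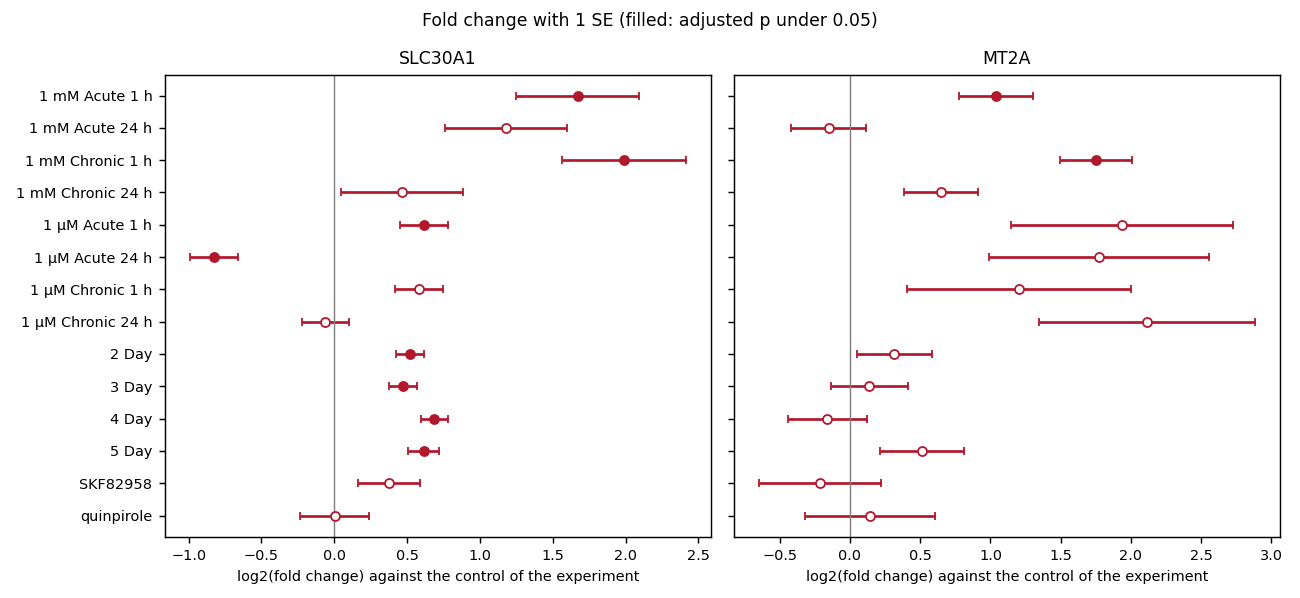
Log2(fold change) of SLC30A1 and MT2A against the control of each experiment (x axis, bars are 1 SE), filled where the adjusted p is under 0.05. SLC30A1 is called at 8 of 14 comparisons, 7 higher and 1 lower (1 µM Acute 24 h), and MT2A at both 1 mM comparisons at 1 h.

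The metal sensor MTF1 had 9.55 to 11.3 TPM in the 1 mM PBS libraries, 10.8 to 13.2 TPM at Acute 1 h and 14 to 14.6 TPM at Chronic 1 h. Its log2(fold change) was 0.28 (SE 0.27, adjusted p = 0.518) and 0.46 (SE 0.27, adjusted p = 0.443). Both were called without 1 mM Acute 24 h replicate 1, with 0.27 (SE 0.09, adjusted p = 0.0325) and 0.46 (SE 0.09, adjusted p = 0.00339). With all libraries MTF1 was called in 1 of the 28 comparisons, lower at 1 µM Chronic 24 h than at Chronic 1 h (-0.78, SE 0.14, adjusted p = 0.0106, and up to 0.0793 with a library of these groups left out). In 1 mM Acute 24 h replicate 1 it was listed at 35.7 TPM, above every other library but the quinpirole library of few reads. Of 13 other metallothionein genes and pseudogenes listed, 12 were found by name, and 0 of them passed the filter in any experiment.

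The counts of the lists that follow stand beside those of all 17804 genes tested at 1 mM, of which 1431 were called higher and 1414 lower at Acute 1 h, 226 and 145 at Chronic 1 h and 1492 and 1263 at Acute 24 h. Of 9 other SLC30 exporters, 7 were tested, and at 1 mM only SLC30A4 at Acute 1 h (-0.75, SE 0.19, adjusted p = 0.0169) and SLC30A6 at Acute 24 h (0.60, SE 0.13, adjusted p = 0.012) were called against PBS. Both load zinc into compartments inside the cell. At Chronic 1 h 0 of the 7 were called. At 1 µM, SLC30A6 was higher at Acute 1 h (1.06, SE 0.17, adjusted p = 0.00165) and Chronic 1 h (0.70, SE 0.16, adjusted p = 0.037), and SLC30A10 and SLC30A4 lower at Acute 24 h (shares of all genes called in these comparisons are given above). Of 14 SLC39 importers, 11 were tested at 1 mM, with SLC39A3 higher at Acute 1 h (0.51, SE 0.11, adjusted p = 0.00989), SLC39A9 higher and SLC39A12 lower at Acute 24 h and 0 called at Chronic 1 h. The median log2(fold change) at Acute 1 h was -0.05 over the exporters and 0.15 over the importers.

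Among 10 copper-handling genes, SOD1 was the 1 called at 1 mM Acute 1 h (0.32, SE 0.08, adjusted p = 0.0213), and 0 were called at Chronic 1 h. Among 10 iron-handling genes, the ferritin subunits FTH1 (0.46, SE 0.08, adjusted p = 0.0162) and FTL (0.53, SE 0.09, adjusted p = 0.013) rose at Chronic 1 h. At Acute 1 h IREB2, an iron-sensing RNA-binding protein, was the 1 called, with -0.33 (SE 0.08, adjusted p = 0.00994).

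Lists of other signals that are known to act on metallothionein genes gave these counts at 1 mM, where 8.04% of all genes were called higher at Acute 1 h and 1.27% at Chronic 1 h. Of 10 glucocorticoid targets, 7 were higher at Acute 1 h (CEBPD by 2.84 and DUSP1 by 1.57 on the log2 scale) and 4 at Chronic 1 h, and their summed level was 191 to 215 TPM in PBS, 364 to 433 TPM at Acute 1 h and 297 to 328 TPM at Chronic 1 h. With all libraries, FKBP5, PER1 and ZBTB16 of this list were called at neither time. Of 10 antioxidant response genes, 2 (NQO1 and TXNRD1) were higher at both times. Of 10 heat shock genes, 0 were called at either time. Hypoxia-inducible targets fell in 9 of 10 cases at Acute 1 h and 1 of 10 at Chronic 1 h, against 1414 and 145 of 17804 genes. The share of gene reads in introns was 19.5 to 21.8% in PBS, 12.3 to 13.2% at Acute 1 h and 20.6 to 20.9% at Chronic 1 h. At 24 h it was 12.5 to 15.9% (Acute) and 18.9 to 22.4% (Chronic). Both acute groups thus lay below PBS and both chronic groups overlapped it, so this share separates acute libraries from the others at either hour. The part of any of these in the values of SLC30A1 and the metallothioneins was not tested.

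Cell type markers at 1 mM were counted in the same way, with 10 genes a list, beside 1431 higher and 1414 lower of 17804 genes at Acute 1 h and 226 and 145 at Chronic 1 h. At Acute 1 h, 1 astrocyte marker rose (GJA1) and 2 fell, and at Chronic 1 h 2 rose (GFAP and AGT) and 0 fell, with a summed level of 619 to 647 TPM and 606 to 626 TPM against 467 to 502 TPM in PBS. Mesenchymal markers summed to 93.4 to 137 TPM in PBS, 113 to 122 TPM at Acute 1 h and 108 to 159 TPM at Chronic 1 h, with 1 higher and 1 lower at Acute 1 h and 0 called at Chronic 1 h. Of 9 choroid epithelial markers tested, 3 rose and 1 fell at Acute 1 h, and 0 were called at Chronic 1 h. Progenitor markers fell in 2 and 1 of 10 cases, general neuron markers rose in 1 and fell in 2 at Acute 1 h with 0 called at Chronic 1 h, and striatal neuron markers fell in 1 at each time. The part of cell makeup in the member values was not tested.

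With 1 mM Acute 24 h replicate 1 left out, more genes were called overall (3624 higher and 3612 lower of 18178 at Acute 1 h, 1682 and 1654 at Chronic 1 h). At Acute 1 h the counts were then 7 higher and 1 lower for glucocorticoid targets, 5 and 1 for antioxidant response genes and 2 and 0 for heat shock genes. At Chronic 1 h they were 5 and 1, 6 and 0, and 2 and 0. Among the metal lists at Acute 1 h, 1 of 7 exporters was higher and 2 lower, 4 of 12 importers higher and 0 lower, 1 copper gene higher and 2 lower, and 0 iron genes higher and 2 lower. At Chronic 1 h these were 0 and 1, 3 and 1, 0 and 1, and 2 and 2. At Acute 24 h (2026 genes higher and 2022 lower) they were 1 and 1 for exporters and 4 and 2 for importers. Of the cell type lists at Acute 1 h, astrocyte markers gave 3 higher and 3 lower, progenitor markers 1 and 2, mesenchymal and choroid epithelial markers 1 and 1, and 3 and 1, and both neuron lists 1 and 5. At Chronic 1 h astrocyte markers gave 4 and 0, progenitor markers 2 and 6, mesenchymal markers 1 and 0, choroid epithelial markers 0 and 4, general neuron markers 0 and 2 and striatal neuron markers 1 and 1. At Acute 24 h, 1 astrocyte marker was higher and 3 lower.

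The genes most like SLC30A1 across libraries were found by Pearson's r of log2(TPM + 1), centred within each experiment, over 19098 genes with a mean of at least 1 TPM. Over all 53 libraries they included SCAF8 (0.92), GADD45A (0.91), EPC1 (0.90) and SPTY2D1 (0.90). Without the 2 libraries that stand apart (19080 genes) they were MCL1 (0.86), FOS (0.86), IRF1 (0.85), EXOC8 (0.85) and KLF10 (0.84), so the list itself depends on those libraries. For the summed metallothioneins the genes were H2BC21 (0.86), ARMCX5 (0.84), DPM3 (0.84), H2AW (0.84) and TSTD1 (0.84), and without those libraries H2BC5 (0.65), SNAI1 (0.63), TUFT1 (0.63), MSRA (0.62) and LINC00511 (0.62). SLC30A1 and the summed metallothioneins had an r of 0.62, or 0.50 over the 51 libraries. Libraries share conditions and depth, and these values are descriptions without a test.

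The order of the group means (TPM) summarizes the levels. For SLC30A1 at 1 mM the order was PBS, Chronic 24 h, Acute 24 h, Acute 1 h and Chronic 1 h, with Acute 24 h overlapping both its neighbours and the other neighbours apart. For MT2A it was Acute 24 h and PBS (overlapping), Chronic 24 h and Acute 1 h (overlapping) and Chronic 1 h apart from all. For MT1X it was Acute 24 h, PBS, Chronic 24 h and Acute 1 h, each overlapping the next, and then Chronic 1 h apart. For MT3 it was Acute 24 h, then Acute 1 h, Chronic 24 h and Chronic 1 h, and PBS apart at the top. Acute 24 h of MT3 lay below Acute 1 h and Chronic 1 h without overlap but overlapped Chronic 24 h, and the 3 groups above it overlapped each other. For SLC30A1 at 1 µM it was Acute 24 h apart, Chronic 24 h and PBS overlapping, and Chronic 1 h and Acute 1 h overlapping above them.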

How the data were processed

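RNA-seq libraries of H9-derived hMSN-like cells (53 libraries, 18 conditions) were used. The authors mapped the reads to GRCh38 in CLC Genomics Workbench and deposited, per library and gene, raw counts of exon, intron, total gene and unique gene reads and TPM computed from exon reads. The strand setting and the sequencing provider of each library are not given in the sources used here. Exon read counts were tested with edgeR 4.0.16 (filterByExpr with a minimum count of 10 and a minimum total of 15, TMM, glmQLFit and glmQLFTest) in R 4.3.3, with the groups of an experiment in a shared fit and Benjamini-Hochberg adjustment over all genes tested. The SE was taken from the log2 estimate and the root of its F statistic. DESeq2 1.42.0, other read counts, no filter, fits of only the groups compared, a replicate block and left-out libraries were alternatives. The tests were checked on counts simulated for the 1 mM experiment. Changes were put only into genes with more reads than most metallothioneins have, and no library was made to stand apart. The check therefore does not cover low counts or such a library. The members, gene lists, motifs and the 2 libraries left out were chosen with earlier results of these data known. All 8 members and MTF1 are described, zinc transporters are named where called, other lists by their largest changes among those called, and the 5 genes most alike by correlation, of which 1 is not reported here. Names given beyond that were chosen after their values were seen. Intervals and floors cover counting error only. The labelled 5 Day replicate 1 was not analysed here.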

Additional observations from a re-analysis of the deposited data

Results flagged for a closer look

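The change of SLC30A1 against PBS at Acute 24 h differed between the 1 mM and 1 µM experiments, by 1.98 on the log2 scale (SE 0.45, adjusted p = 0.0357 from edgeR's interaction term). The difference is given here because its test passed the threshold. Each dose had its own PBS controls, so dose and experiment cannot be told apart. At 1 mM, SLC30A1 was 145 TPM in Acute 24 h replicate 1 and 31.1 and 26.8 TPM in the other libraries of that group, against 24.5 to 28.7 TPM in PBS. At 1 µM it was 16.9 to 21.5 TPM against 29.1 to 38.2 TPM in PBS. The difference was 0.94 (SE 0.20, adjusted p = 0.0182) without 1 mM Acute 24 h replicate 1, and of the 12 fits that each left out a library of the compared groups, 8 lost the call (adjusted p = 0.0654 to 0.11). With the replicate block the call of SLC30A1 was lost as well, at 1.91 (SE 0.46, adjusted p = 0.0559). In that library MTF1 was listed at 35.7 TPM and MT3 at 0.572 TPM, and the part of its other differences in this value was not tested.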

How the results depend on the processing

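The values below are numbers of members called in either direction, out of the 6 tested at 1 mM and in the dose fits and 3 elsewhere. Shares of all genes called are given above for the main fits and those without 1 mM Acute 24 h replicate 1. They are not given for the other alternatives, so these counts describe the members only. The cause of each change was not tested, except that a fit of only the groups compared has fewer samples and tests fewer members. At 1 mM Acute 1 h, 3 members were called, all higher, and 5 with total gene reads or unique gene reads, also all higher. With only the groups compared 5 were called (4 higher and 1 lower), and 6 without 1 mM Acute 24 h replicate 1 (5 higher and 1 lower). At 1 mM Acute 24 h, 1 was called (lower), and 0 with only the groups compared. With total gene reads, unique gene reads, DESeq2 or no filter 2 were called, in each case 1 higher and 1 lower. At 1 mM Chronic 1 h, 4 were called, and 3 with total gene reads or with DESeq2 (of the 4 it tested), all higher. With only the groups compared or without 1 mM Acute 24 h replicate 1, 6 were called, in each case 5 higher and 1 lower. At 1 mM Chronic 24 h, 0 were called, and 2 without that library (1 higher and 1 lower). For Chronic 1 h against Acute 1 h, 0 were called, and 1 with DESeq2, 4 with only the groups compared and 3 without that library. For Chronic 24 h against Acute 24 h, 1 was called, and 2 with DESeq2 or without that library and 0 with the replicate block or only the groups compared, and SLC30A1 reversed from -0.71 to 0.36 without that library, with a range of -1.08 to 0.36 over the 6 fits that each left out a library. For Acute 24 h against Acute 1 h, 2 were called, and 3 with unique gene reads or without that library and 0 with only the groups compared. For Chronic 24 h against Chronic 1 h, 0 were called, and 3 with DESeq2 or only the groups compared and 4 without that library.

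At 1 µM Acute 1 h, 1 was called, and 0 with no filter or only the groups compared. At 1 µM Chronic 1 h and for 1 µM Chronic 24 h against Chronic 1 h, 0 were called, and 1 with total gene reads, unique gene reads or DESeq2. For 1 µM Chronic 24 h against Acute 24 h, 1 was called, and 2 with the replicate block or only the groups compared. At 5 Day, 1 was called, and 0 with total gene reads or only the groups compared. For the dose difference, 0 were called at Acute 1 h and 1 with total gene reads, unique gene reads or without 1 mM Acute 24 h replicate 1, 1 at Acute 24 h and 0 with the replicate block, and 0 at Chronic 1 h and 1 without that library. A fit of only the groups compared was not run for the dose differences.

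With each library of the compared groups left out in turn, the number called ranged from 1 to 3 at 1 mM Acute 1 h, 0 to 2 at 1 mM Acute 24 h, 2 to 3 at 1 mM Chronic 1 h, 0 to 2 for Chronic 24 h against Acute 24 h, 0 to 3 for Acute 24 h against Acute 1 h and 0 to 1 for Chronic 24 h against Chronic 1 h. It ranged from 0 to 1 at 1 µM Acute 1 h, 1 µM Acute 24 h, 1 µM Chronic 24 h against Acute 24 h, 3 Day and the Acute 24 h dose difference. The replicate numbers were not used as pairs in the main fits. Whether they pair libraries was not settled at 1 µM. There 16 of 30 pairs with the same number had residuals correlated over 0.1 (highest 0.723), against 6 of 30 at 1 mM. Residuals of libraries with the same number had a median correlation of 0.00425 at 1 mM, 0.223 at 1 µM, -0.0285 in the time course and -0.101 in the agonist experiment, and 7 of 15, 7 of 15, 2 of 14 and 2 of 9 libraries correlated best with their own number. With the replicate block as a term, the counts of calls moved only as given above. MT1G and MT1M passed the filter in no experiment, and MT1E, MT1F and MT1X only at 1 mM and in the dose fits.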
